A study of Homo sapiens with 6 samples.

Results

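The 8 human troponin genes were examined for acetylated NEIL1 (AcNEIL1) peaks in the human colorectal carcinoma line HCT116. They are TNNI1, TNNI2, TNNI3, TNNT1, TNNT2, TNNT3, TNNC1 and TNNC2, 8 of the 19817 protein-coding genes of the RefSeq table used. The genes were chosen by name, with earlier results of these peak lists in view, and each was taken with 20 kb on either side. The study held 3 AcNEIL1 ChIP libraries, replicates 1 to 3, made from exponentially growing, formaldehyde-crosslinked cells with a rabbit antibody, custom made, to the acetylated protein. It also held 3 input libraries of sheared chromatin from the same line, which enter here as the control of the peak calls. No library carried a treatment or a genetic change. The ChIP libraries held 28814429 to 35222701 tags and the inputs 32877739 to 37772127. Nothing in the labels says that the replicates were separate cultures, and their spread may be technical only.

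Troponin is the calcium switch of striated muscle and sits on the thin filament with tropomyosin. Troponin C binds calcium, troponin I holds back the actin and myosin interaction, and troponin T ties the complex to tropomyosin. Each subunit comes in forms used by fast skeletal, slow skeletal or cardiac muscle, and several genes of a troponin I stand beside a gene of a troponin T. NEIL1, a DNA glycosylase, cuts oxidised bases out of DNA as the opening step of base excision repair, and acetylation is a modification of this enzyme. A ChIP peak list carries no expression values, so whether HCT116 cells express these muscle genes was not analysed here.

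A troponin gene end carried an AcNEIL1 peak in every replicate. A gene-end peak is a peak that overlaps the 1000 bp on either side of the lower or upper coordinate end of the gene. It was found at 8 of 8 troponin genes in replicate 1, against 14.0% of protein-coding genes, at 8 of 8 in replicate 2, against 20.1%, and at 8 of 8 in replicate 3, against 15.6%. The count was 8 of 8 in at least 2 replicates, against 15.2% of protein-coding genes, and 8 of 8 in all 3 replicates, against 9.03%. Since these same peaks were known when the family was chosen, the counts describe the family and test nothing. The closest case was TNNI1 in replicate 3, whose end peak began 992 bp from the end, while the nearest one just outside a window, at the upper end of TNNT3 in replicate 1, lay 1017 bp away. At the 20 kb limit of the flanks, the nearest peaks inside reached the limit and the nearest outside, at TNNC1 in replicate 2, lay 522 bp beyond it. At an end window of 500 bp, 6 genes had an end peak in all 3 replicates and all 8 had one in at least 2. At a −log10 q of 5 or more, 7 genes had one in at least 2 replicates and 2 genes, TNNI1 and TNNI2, had one in all 3.

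The side of the gene differed within the family. The lower coordinate end was marked in all 3 replicates at TNNI1, TNNI2, TNNT2, TNNT3, TNNC1 and TNNC2. The upper end was marked in all 3 at TNNI2, TNNI3, TNNT1 and TNNT3. Both ends were marked in all 3 replicates at 2 of 8 genes, TNNI2 and TNNT3, against 1.57% of protein-coding genes. TNNI3 and TNNT1 had no lower-end peak in any replicate, and TNNT2 and TNNC2 had no upper-end peak in any. Peaks of all 3 replicates fell in one merged region, by overlap of at least 1 bp, at 9 of the 16 gene ends and at 7 of the 8 genes, the exception being TNNC2. Peaks were joined in chains, so the peaks of all 3 replicates in a region need not share a base. At the upper end of TNNT1 the peaks of replicates 1 and 3 in the shared region did not overlap. The share of all protein-coding genes with such merged regions was not computed, so these counts are description only.

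**Figure D1:**
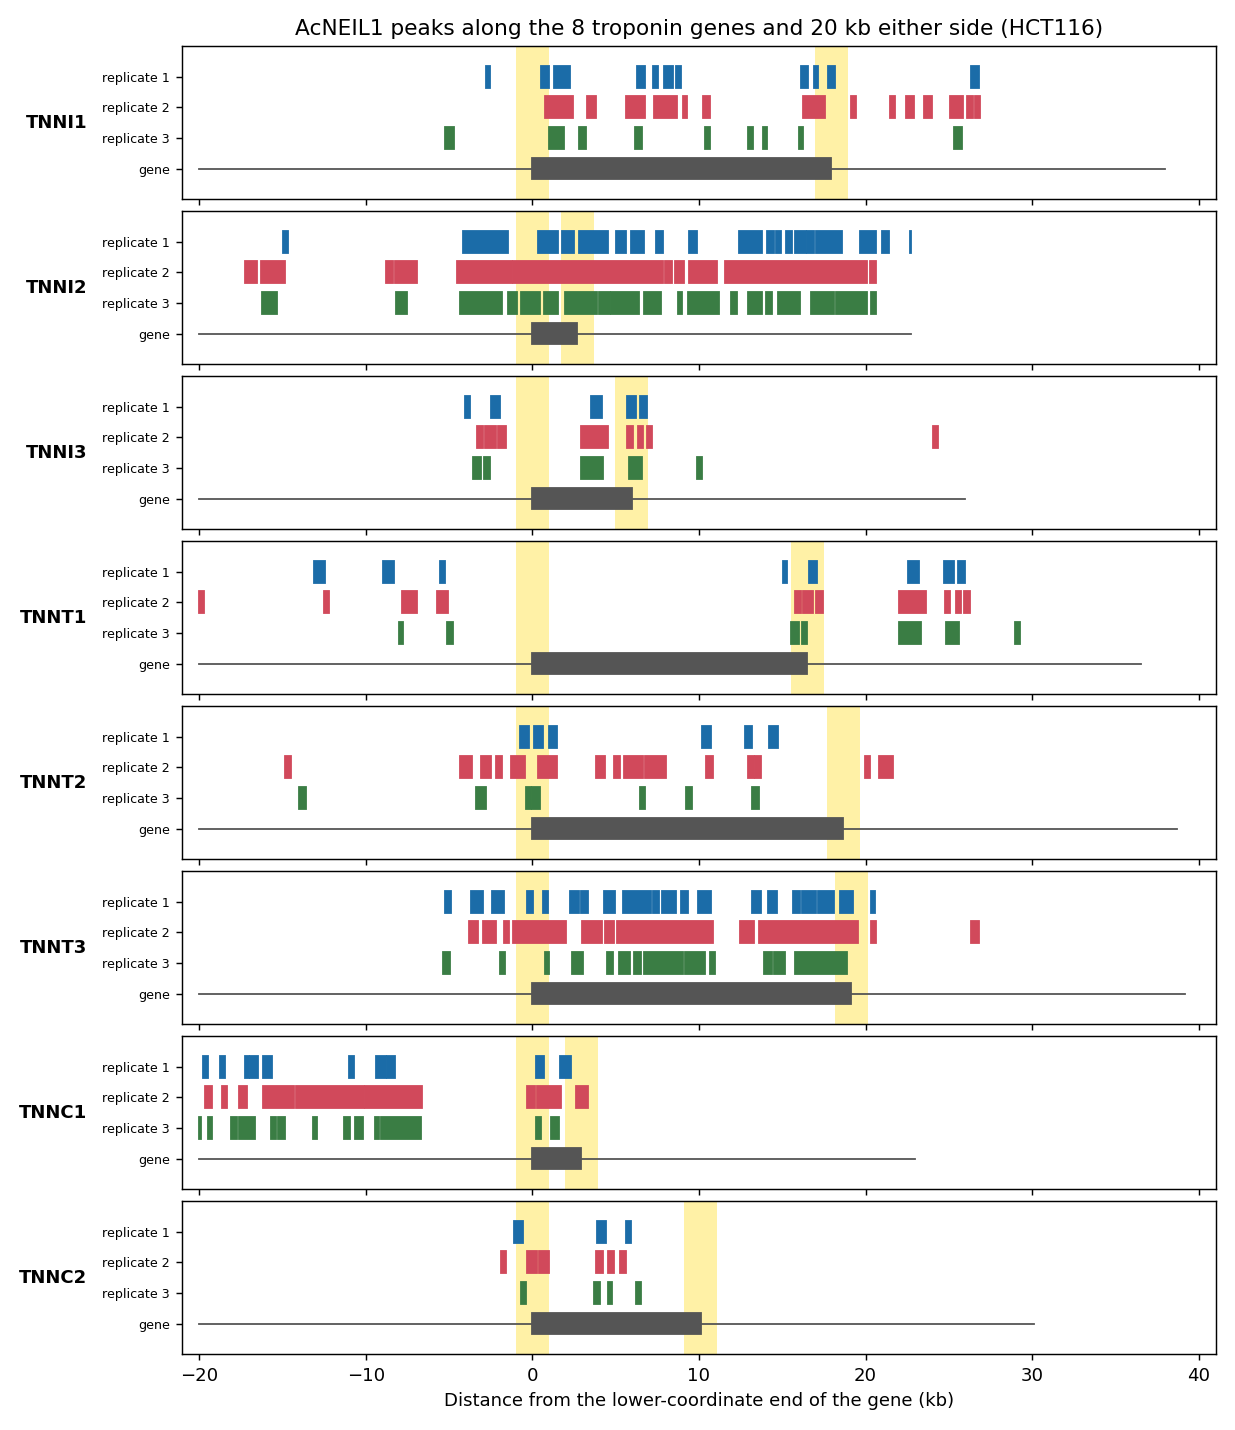
Peaks of replicates 1, 2 and 3 along each troponin gene, plotted by distance in kb from the lower coordinate end of the gene. The grey bar is the gene body, the line its 20 kb flanks, and the shaded bands are the 1000 bp on either side of each end. TNNI2 and TNNT3 are crossed by long peaks, while the body of TNNT1 is nearly empty away from its upper end.

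Of the 8 genes, 3 have a promoter sequence in the RefSeq table used (GRCh38.p14), TNNI3, TNNT1 and TNNT2. All lie on the minus strand, so the upper coordinate end is the transcription start. The windows run from 250 bases before to 50 bases after that start and are shown 5′ to 3′ because the peaks treat them differently. Capitals mark bases that lay under peaks of at least 2 replicates.
TNNI3 (chr19:55157683-55157982, minus strand): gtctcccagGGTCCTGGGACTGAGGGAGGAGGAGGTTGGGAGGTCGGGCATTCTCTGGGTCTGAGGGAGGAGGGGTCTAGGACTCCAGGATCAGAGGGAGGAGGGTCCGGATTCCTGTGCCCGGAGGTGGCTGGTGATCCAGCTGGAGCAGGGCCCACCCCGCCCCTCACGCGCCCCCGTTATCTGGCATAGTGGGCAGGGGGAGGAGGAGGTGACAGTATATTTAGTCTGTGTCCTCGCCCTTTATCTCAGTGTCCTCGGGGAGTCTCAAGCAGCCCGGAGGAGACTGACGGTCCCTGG
TNNT1 (chr19:55149157-55149456, minus strand): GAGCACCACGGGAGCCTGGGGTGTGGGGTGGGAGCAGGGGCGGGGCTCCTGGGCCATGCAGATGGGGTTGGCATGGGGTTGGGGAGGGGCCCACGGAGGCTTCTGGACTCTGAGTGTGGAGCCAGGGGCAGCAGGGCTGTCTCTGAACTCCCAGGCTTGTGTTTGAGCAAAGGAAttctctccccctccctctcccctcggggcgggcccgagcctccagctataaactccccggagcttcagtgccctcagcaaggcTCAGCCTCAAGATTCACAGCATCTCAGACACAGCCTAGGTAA
TNNT2 (chr1:201377631-201377930, minus strand): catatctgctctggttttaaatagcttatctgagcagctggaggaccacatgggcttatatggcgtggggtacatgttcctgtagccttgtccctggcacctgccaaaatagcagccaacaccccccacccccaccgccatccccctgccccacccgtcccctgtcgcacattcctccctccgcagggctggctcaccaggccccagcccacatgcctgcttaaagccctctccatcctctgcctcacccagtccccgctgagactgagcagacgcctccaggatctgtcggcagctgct
The TNNI3 window had 291, 103 and 300 of its 300 bases under peaks in replicates 1, 2 and 3, and 103 bases lay under peaks of all 3. The TNNT1 window had 175, 300 and 42 bases under peaks, and none lay under peaks of all 3. The TNNT2 window had 0 bases under peaks in every replicate. A peak touched the window in all 3 replicates at 2 of these 3 genes, against 1.72% of the 22131 promoter windows of protein-coding genes. TNNT2 had its end peaks at the other end of the gene, which is the 3′ end.

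The 3 promoters had a GC content of 64%, 64% and 61% in TNNI3, TNNT1 and TNNT2, close to the median of 62.3% of all promoter windows. They held 11, 7 and 8 CpG, against a median of 21, and 31.7%, 23.9% and 26.0% of the windows held fewer. Short motifs were searched on both strands, with positions counted from the transcription start. The E-box, CANNTG, the letters read by basic helix-loop-helix factors and present in 65.1% of all windows, was matched once in TNNI3 (from -111), once in TNNT1 (from -192) and at 5 places in TNNT2. The GC box, GGGCGG, present in 56.3% of windows, was matched in TNNI3 from -91 and in TNNT1 from -213 and -50. TNNT1 alone of the 3 held a TATA box, TATAAA, from -29 to -24 (9.46% of windows), and TNNT2 alone held an MCAT element, CATTCC, the letters read by TEAD factors, from -81 (12.2% of windows). The matches did not overlap one another, and no MEF2 box (2.19% of windows) or CArG box (1.25%) was matched in these 3 windows. The TATA box and the nearer GC box of TNNT1 lay in the lower-case stretch that a peak of replicate 2 alone covered, while both matches of TNNI3 lay under peaks of replicates 1 and 3.

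Troponin I genes come first. TNNI1, the slow skeletal inhibitory subunit (chr1:201403784-201421730, hg38), carried 3, 2 and 1 peaks at its ends and 6, 5 and 6 further peaks in its body in replicates 1, 2 and 3. Its strongest end peak had a fold of 4.35, 4.73 and 5.25 over the local background, a mean of 4.78 ± 0.452 (SD, n = 3), with pileups of 26, 24 and 20.99 fragments. The fold was the authors' own value for each peak. The local background under these peaks was 5.20, 4.28 and 3.19 fragments, so the highest fold had the lowest pileup and background. That of replicate 3 was near the floor of its list, 3.10, and the part of the background in the fold was not tested. The strongest end peak of replicate 1 lay at the upper end and those of replicates 2 and 3 at the lower end. At the lower end alone the folds were 3.46, 4.73 and 5.25, a mean of 4.48 ± 0.924 (SD, n = 3). Summit distances within a region are those of 1 summit per replicate, picked to lie closest together where a replicate had several peaks. The lower-end region, chr1:201404296-201406197, had peaks of all 3 replicates with summits within 492 bp, and it also lay over the long non-coding RNA gene LOC101929343, which overlaps TNNI1 by 2586 bp. Its peaks there could not be assigned to one gene or the other. In the body, the summits at chr1:201409425-201410573 fell within 71 bp of one another, the smallest spread of any region in the troponin windows, with folds of 3.42, 3.94 and 3.47. The upper end was within reach of peaks of replicates 1 and 2, while the nearest peak of replicate 3 lay 1698 bp away.

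TNNI2, the fast skeletal inhibitory subunit (chr11:1838981-1841678), is the shortest of the family and was the most fully covered. Peaks lay over 70.3%, 100% and 74.9% of its body in replicates 1, 2 and 3. In replicate 2 a single peak of 8997 bp ran across the whole gene, from chr11:1837826-1846822, with a pileup of 52 and a fold of 7.02. That peak ranked 99 by width and 197 by fold among the 60233 of its list. The same stretch held 6 separate peaks in replicate 1 and 7 in replicate 3, covering 5494 and 7482 bp of it. The strongest end peaks were therefore unlike in width, at 1752, 8997 and 1955 bp, though their summits beside the upper end fell within 533 bp. Fold was 3.74, 7.02 and 6.01 (mean 5.59 ± 1.68, SD, n = 3) and pileup 29, 52 and 39.12, with replicate 1 lowest in both. The local background under these peaks was 7.03, 6.55 and 5.68 fragments, against list medians of 4.94, 5.34 and 4.48, and its part in the lower fold of replicate 1 was not tested. No peak touched the body without also reaching an end window, and the windows leave little of this short gene between them.

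TNNI3, the cardiac inhibitory subunit (chr19:55151767-55157732), was marked at its start and in mid-body. Its strongest end peaks had folds of 3.25, 3.55 and 5.65 (mean 4.15 ± 1.31, SD, n = 3) and pileups of 20, 23 and 30.53, with replicate 3 well above the others. Those of replicates 1 and 2 lay 521 and 396 bp outside the gene, on the side of DNAAF3 and off the promoter window printed above. The peaks that touched that window had folds of 2.65, 2.34 and 5.65, and 91.0%, 97.3% and 1.66% of the peaks of their lists had a higher fold. The end peaks merged into one region, chr19:55157424-55158952. The body peak was found in all 3 replicates as well, at chr19:55154679-55156327, with folds of 2.89, 3.48 and 2.87. Its pileups of 30, 37 and 27.67 stood over a local background of 9.71, 9.92 and 9.00 fragments, well above the list medians, and the part of that background in the low fold was not tested.

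Among the troponin T genes, TNNT1, the slow skeletal tropomyosin-binding subunit (chr19:55132698-55149206), had the lowest cover and the lowest mean fold. Peaks lay over 1.62%, 3.82% and 5.17% of its body, all in the part nearest the start. The strongest end peaks had folds of 2.64, 4.21 and 3.51 (mean 3.45 ± 0.789, SD, n = 3) and pileups of 17, 24 and 17.17. Replicate 1 was the weakest, and 91.2% of its list had a higher fold. The strongest end peaks of replicates 2 and 3 lay inside the gene, off the promoter window, and the peaks that touched that window had folds of 2.64, 2.54 and 2.84. The region over the start, chr19:55148852-55150164, had peaks of all 3 replicates with summits within 647 bp. Its peaks of replicates 1 and 3 did not overlap, however, and no base of the gene body lay under peaks of all 3.

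TNNT2, the cardiac tropomyosin-binding subunit (chr1:201359014-201377680), carried its peaks at the 3′ end and inside. The strongest end peaks had folds of 4.03, 4.32 and 3.28 (mean 3.88 ± 0.539, SD, n = 3) with pileups of 24, 33 and 21.94, and replicate 2 was highest in both. The strongest end peak of replicate 2 lay 419 bp outside the gene and those of replicates 1 and 3 overlapped it. The 3′ end held adjoining regions, chr1:201357746-201358908 and chr1:201358987-201360508, each with peaks of all 3 replicates and closest summits within 577 and 514 bp. In the former the peaks of replicates 2 and 3 did not overlap and were joined only through replicate 1. The latter held the 115 bases of the gene that lay under peaks of all 3 replicates. In the latter region the strongest peak of replicate 1 had its summit 1162 bp from the 3′ end. The summits of replicates 2 and 3 lay 663 and 149 bp from it. Further inside the gene 3, 7 and 3 body peaks were found. Of the merged regions there, only chr1:201371770-201372711 had peaks of all 3 replicates (folds 3.58, 3.79 and 3.46). Its peaks of replicates 1 and 3 did not overlap and were joined only through replicate 2. No peak reached the 1000 bp around the start in any replicate.

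TNNT3, the fast skeletal tropomyosin-binding subunit (chr11:1919552-1938702), held 16, 6 and 11 peaks on the gene itself in replicates 1, 2 and 3, on average the most of the family. It is also the longest member, at 19151 bp, and the part of length in that ranking was not tested. The lower count of replicate 2 went with wider peaks: its median width was 2225 bp, against 542.5 and 626 bp in replicates 1 and 3. Peaks covered 52.3%, 83.7% and 54.8% of the body. Replicate 2 had peaks of 3215, 5805 and 5918 bp, the last with a pileup of 51 and a fold of 7.47, rank 117 of 60233 by fold. Under that last peak replicate 3 had 3 peaks, the longest of 3165 bp with pileup 37.21 and fold 5.68, and replicate 1 had 6 narrower ones. The strongest end peaks had folds of 3.56, 7.47 and 5.68 (mean 5.57 ± 1.96, SD, n = 3), that of replicate 1 at the lower end and the others at the upper end. At the upper end alone the folds were 2.23, 7.47 and 5.68 (mean 5.12 ± 2.66), and 98.6% of the replicate 1 list had a higher fold than its peak there. At the lower end alone they were 3.56, 3.45 and 3.11 (mean 3.37 ± 0.233). The upper-end peaks of replicates 2 and 3 had their summits inside the gene, beyond the end window, and when only peaks with the summit inside the window were taken the mean was 3.37. At the lower end the region chr11:1918386-1921600 had peaks of all 3 replicates, but even their closest summits were spread over 1314 bp. On that measure it was the widest spread of any troponin region. Replicates 1 and 3 had summits there at chr11:1920361 and chr11:1920355, close together, while that of replicate 2 was at chr11:1919041. A further summit of replicate 1 was at chr11:1919511.

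The troponin C genes are not neighbours of other troponin genes. TNNC1, the calcium-binding subunit of slow skeletal and cardiac muscle (chr3:52451100-52454041), had strongest end peaks with folds of 3.87, 3.46 and 3.57 (mean 3.63 ± 0.213, SD, n = 3) and pileups of 23, 22 and 19.08. Those of replicates 1 and 2 lay at the upper end and that of replicate 3 at the lower end, so their closeness is not that of one site. At the lower end alone the folds were 3.70, 3.36 and 3.57 (mean 3.54 ± 0.170). The region chr3:52451333-52453447 spanned most of the gene and had peaks of all 3 replicates, with closest summits within 499 bp. Those of replicates 1, 2 and 3 lay 1980, 1481 and 1567 bp from the lower end. Further summits of replicates 1 and 3 lay 452 and 473 bp from it. At the upper end, peaks of replicates 1 and 2 lay in different places, and the nearest peak of replicate 3 was 1366 bp away. The flank on the lower-coordinate side held 5 further regions with peaks of all 3 replicates, of which 4 lay over SEMA3G, a semaphorin gene.

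TNNC2, the fast skeletal calcium-binding subunit (chr20:45823214-45833306), had the fewest peaks in its window, 3, 6 and 4. The strongest end peaks had folds of 4.49, 4.38 and 3.97 (mean 4.28 ± 0.274, SD, n = 3) and pileups of 21, 24 and 15.27. Their local backgrounds were 3.90, 4.71 and 3.10 fragments, the last close to the floor of its list, and their part in the folds was not tested. The 3 replicates were alike in fold but not in place. The lower-end peaks of replicates 1 and 3 lay outside the gene and overlapped by 94 bp, while that of replicate 2 began 66 bp beyond them and ran into the gene. The one region common to the 3 replicates was inside the body, at chr20:45826944-45827662, with folds of 3.25, 3.60 and 5.42 and summits within 154 bp. Replicate 3 had its strongest peak of the gene there, above a local background of 3.24 fragments, near the floor of 3.10.

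**Figure D2:**
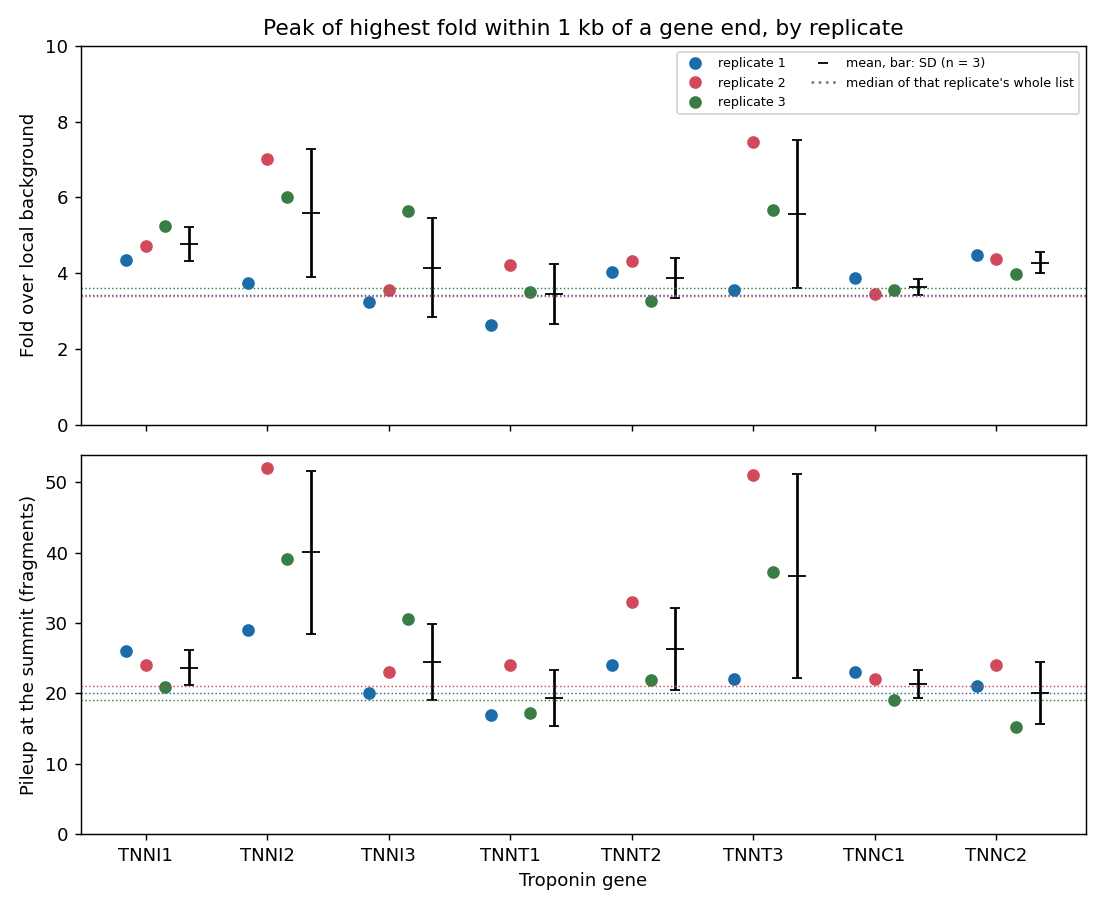
Fold over the local background (upper panel) and summit pileup in fragments (lower panel) of the strongest gene-end peak of each troponin gene in replicates 1, 2 and 3, with mean and SD (n = 3). Dotted lines are the medians of each whole peak list. TNNI2 and TNNT3 have the highest means and the widest spread. At TNNI1, TNNT3 and TNNC1 the replicates' strongest peaks lie at different ends.

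In order of mean fold of the strongest end peak the genes were TNNI2, TNNT3, TNNI1, TNNC2, TNNI3, TNNT2, TNNC1 and TNNT1. The replicate values of every neighbouring pair in this order overlapped, and at TNNI1, TNNT3 and TNNC1 they come from different ends in different replicates. Among the 1790 protein-coding genes with an end peak in all 3 replicates, TNNI2 ranked 101, TNNT3 106, TNNI1 357, TNNC2 714, TNNI3 824, TNNT2 1147, TNNC1 1386 and TNNT1 1550. The family thus spread over most of the range of such genes, with a median of 4.21 over the 8 troponin genes against 4.09 over the 1790.

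The genes ranged more widely in cover of the body than in fold. A peak touched the body in all 3 replicates at 8 of 8 genes, against 20.4% of the 6951 protein-coding genes between 2698 and 19151 bp long, the length range of the family. With peaks below a −log10 q of 5 left out the count was 3 genes, and with each list held to its 5000 peaks of highest −log10 p it was 1. The share of genes of like length was not recomputed under these settings, so the drop cannot be set against it. Mean cover was 81.7% ± 16.0 at TNNI2, 63.6% ± 17.4 at TNNT3, 43.5% ± 21.5 at TNNC1, 24.9% ± 11.2 at TNNI1, 24.6% ± 8.24 at TNNI3, 17.0% ± 11.4 at TNNT2, 12.6% ± 6.68 at TNNC2 and 3.54% ± 1.79 at TNNT1 (SD, n = 3 each). Of the genes of like length, 99.6%, 98.4%, 95.8%, 90.5%, 90.4%, 86.5%, 83.5% and 71.9% had a lower mean cover than these genes in turn, and 59.8% had none in any replicate. Replicate 2 had the highest cover at 7 of the 8 genes, all but TNNT1, and its list was the longest and its peaks the widest. Bases under peaks of all 3 replicates made up 55.0% of TNNI2, 35.7% of TNNT3, 14.2% of TNNI3 and 9.21% of TNNC1. The share was 4.74% in TNNI1, 2.04% in TNNC2, 0.616% in TNNT2 and 0 in TNNT1.

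**Figure D3:**
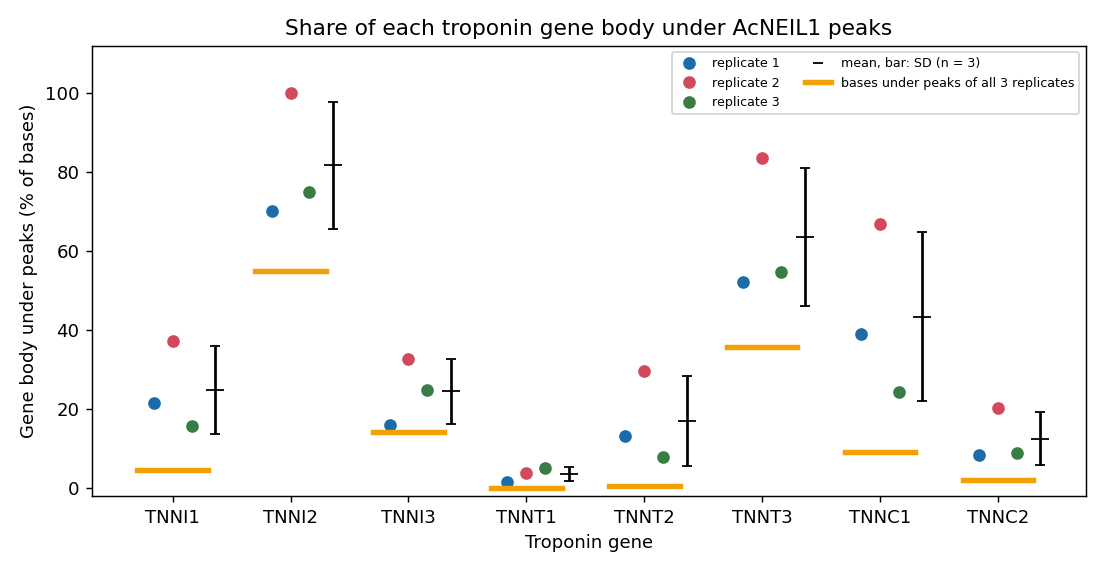
Percent of the bases of each troponin gene body that lay under peaks in replicates 1, 2 and 3, with mean and SD (n = 3). The orange bar is the percent under peaks of all 3 replicates, which reaches 55.0% in TNNI2 and 35.7% in TNNT3 and is 0 in TNNT1.

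The fast skeletal genes TNNI2 and TNNT3 lie 77873 bp apart, and the stretch between them was itself covered to 38.2%, 56.5% and 41.4% in replicates 1, 2 and 3. In the 1 Mb around TNNI2 there were 173, 261 and 208 peaks, and around TNNT3 183, 242 and 215, against medians of 18, 28 and 23 around protein-coding genes. A lower mean density than theirs was found at 99.5% of protein-coding genes. The cover of both genes is thus part of a long peak-rich stretch, and how much of it belongs to the genes was not tested. By contrast TNNT2 and TNNI1 lie 26103 bp apart with 1.03%, 4.39% and 2.03% of that stretch under peaks, less than in the body of either gene in any replicate. TNNT1 and TNNI3 are 2560 bp apart, and 20.7%, 31.3% and 0% of the bases between them lay under peaks. No peak touched both genes of any of these 3 pairs in any replicate. The density around the other members was a mean of 143 peaks per Mb at TNNC1, 133.3 at TNNI1, 123 at TNNT2, 82.7 at TNNI3, 80.0 at TNNT1 and 52.7 at TNNC2, each above the median of 23.7, and its part in the counts of end peaks was not tested.

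Some troponin peaks were shared with neighbour genes, and the share of such peaks over all genes was not computed. Of the peaks on a troponin body or end window, 5 of 44 in replicate 1, 7 of 38 in replicate 2 and 5 of 37 in replicate 3 also touched another gene, protein-coding or long non-coding, or its end window. DNAAF3, a gene of dynein arm assembly in cilia, lies 929 bp from TNNI3 and shared 2, 3 and 1 of the TNNI3 end peaks, of which 1, 2 and 1 also reached DNAAF3-AS1. SYT8, a synaptotagmin gene, shared 0, 1 and 2 peaks with TNNI2, and the long non-coding RNA gene LOC107984299 shared 1, 1 and 0. LOC101929343 shared 2 peaks with TNNI1 in each replicate, and PRR33 shared 1 with TNNT3, in replicate 2. TNNT1, TNNT2, TNNC1 and TNNC2 shared none. The nearest protein-coding genes outside each locus of troponin genes were PKP1 and PHLDA3 on either side of TNNT2 and TNNI1, SYT8 and LSP1 at TNNI2, and PRR33 and MRPL23 at TNNT3. They were PPP1R12C and DNAAF3 at TNNT1 and TNNI3, SEMA3G and NISCH at TNNC1, and UBE2C and SNX21 at TNNC2.

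With their flanks the 8 genes form 6 loci of 362636 bp in all. They held 77, 78 and 72 peaks in replicates 1, 2 and 3, out of 39789, 60075 and 49609 on chromosomes 1 to 22 and X. Of these, 18, 18 and 14 were at gene ends, 26, 20 and 23 in bodies only, and 33, 40 and 35 in flanks. The number of troponin peaks was thus nearly the same in the 3 replicates although the lists differed in length. Covered length was 45617, 89498 and 50281 bp, with replicate 2 far above the others. Median width was 487, 539 and 443 bp in the loci, against 401, 478 and 384 bp in the whole lists, and median pileup was 23, 22.5 and 21.94, against 20, 21 and 19.08. Median fold was 3.42, 3.55 and 3.62, against 3.42, 3.40 and 3.61, so that the loci stood out in width and pileup more than in fold. The local background was also higher, with medians of 5.98, 5.44 and 5.00 fragments against 4.94, 5.34 and 4.48, and its part in the pileups was not tested.

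**Figure D4:**
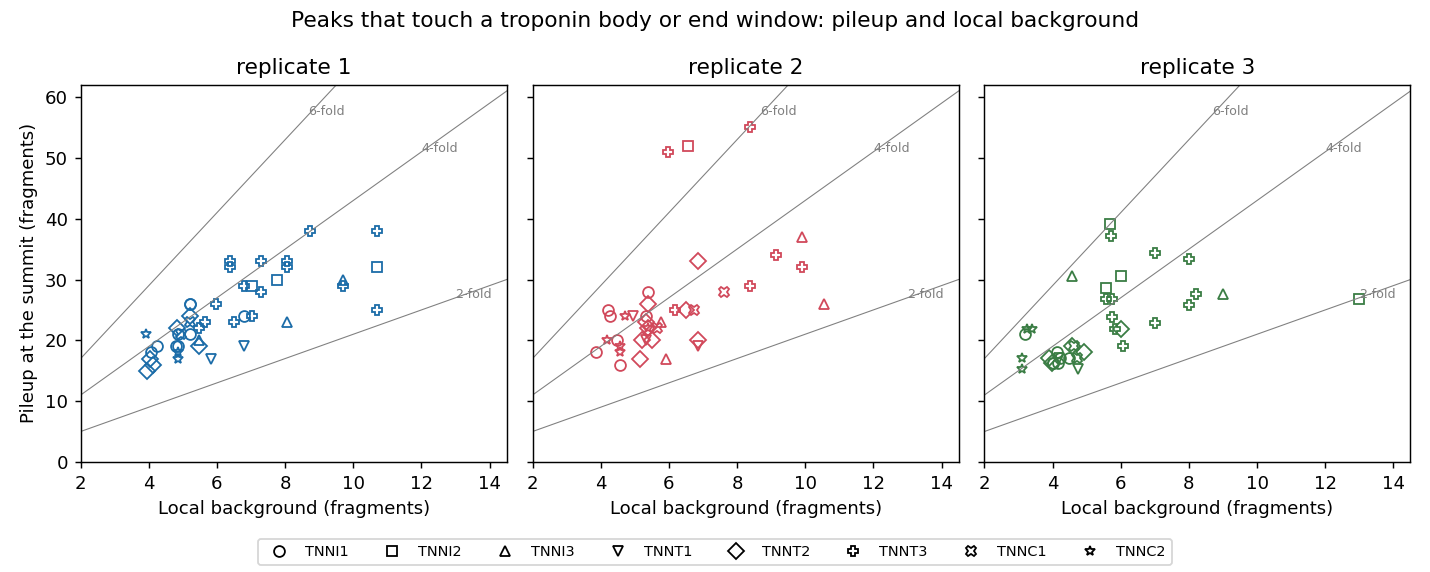
Summit pileup against the local background, both in fragments, for each peak that touched a troponin body or end window, with 1 panel per replicate and 1 symbol per gene. Grey lines mark folds of 2, 4 and 6, computed with 1 added to both values. TNNT3, TNNI2 and TNNI3 peaks reach the highest backgrounds and pileups, while TNNI1, TNNT2 and TNNC2 peaks crowd at low values of both.

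Merging the 3 lists gave 88 regions in the troponin loci, of which 27 (30.7%) had peaks of all 3 replicates, 19 of 2 and 42 of 1. Over all 85534 regions of the genome 13.2% had peaks of all 3. Peaks were joined in chains, so the replicates of a shared region need not all overlap one another. The count of 27 was 5 with peaks below a −log10 q of 5 left out and 3 with each list held to 5000 peaks. In another unit, 4 replicate 1 peaks overlapped reciprocally by 50% with a peak of replicate 2 and a peak of replicate 3. The share over all regions of the genome was not recomputed under these settings. Among the 42 regions that touched a troponin body or end window, 17 (40.5%) had peaks of all 3 replicates. The like share for regions that touch any gene body or end window was not computed. The closest summits of the 3 replicates in these shared regions lay within a median of 514 bp, against 406 bp over all shared regions of the genome. After the 71 bp at TNNI1, the next closest summits on a troponin gene were those at chr11:1923859-1924501 in TNNT3, within 98 bp.

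Lists of other muscle genes were set beside the family. These lists were also drawn up with earlier results known, and are given as counts of genes with an end peak in all 3 replicates, the measure for which protein-coding genes stood at 9.03%. In the thin filament list 1 of 17 genes had one, TPM1, a tropomyosin (fold 4.68 ± 0.894). In the thick filament list 6 of 16 had one, led by MYBPC2, a fast myosin-binding protein C (5.10 ± 0.631), MYL3, a ventricular and slow myosin light chain (4.23 ± 0.304), and MYL11, the fast regulatory light chain (4.11 ± 0.621). In the list of calcium release and uptake 1 of 11 had one, HRC, a calcium-binding protein of the sarcoplasmic reticulum (7.01 ± 1.19). Among the EF-hand relatives of troponin C 3 of 7 had one, the calmodulin-like genes CALML6 (6.40 ± 1.58), CALML5 (4.68 ± 1.18) and CALML3 (3.96 ± 0.230). In the list of muscle transcription factors 2 of 12 had one, MYOG, the myogenin gene (3.56 ± 0.793), and MEF2B (3.13 ± 0.614). Errors are SD over 3 replicates.

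For each troponin gene the protein-coding gene outside the troponin windows with the most alike folds of the strongest end peak over the 3 replicates was also found, by Euclidean distance of log2 fold. For TNNC1 it was GARIN5B, at a distance of 0.0227, with folds of 3.90, 3.47 and 3.52. For TNNI1 it was SOCS6, at 0.0252, with 4.42, 4.75 and 5.20. The others were KIFC2 for TNNT1 (0.0283), OLFML3 for TNNT2 (0.0384), KRTAP5-6 for TNNI3 (0.0507) and NLRP6 for TNNC2 (0.0666). The most distant matches were PROM2 for TNNI2 (0.136) and GPR20 for TNNT3 (0.141), the troponin genes with the largest spread between replicates. With 3 values per gene and 1790 genes to choose from, such likeness is a description only.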

How the data were processed

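Peak lists of the 3 AcNEIL1 ChIP libraries were used. Per the file headers, the authors ran MACS 2.1.1.20160309 on each replicate against the input of the same number, with a q-value cutoff of 0.05 and at most 2 tags per position. The larger library of a pair was scaled to the smaller. The submitters' processing notes name Bowtie2, MACS2, SAMtools, bedtools, cutadapt, Trim Galore and FastQC without stating their roles. The deposited signal is the pileup at the summit, in tags extended to fragments of 268, 294 and 249 bp, per the file headers. Significance was deposited as −log10 of the caller's p and q, and the deposited ratio is the fold of pileup over local background with 1 added to each, from which the background was recovered. The lists hold no values outside peaks, so a place without a peak is one where none passed the cutoff at this depth.

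Coordinates are 1-based in hg38. Gene positions came from RefSeq (GRCh38.p14), with 679 rows on scaffolds dropped, which left 58415 genes. That table gives no strand and no exons, so ends are named by coordinate, except where the RefSeq promoter table gave a strand. Overlaps of at least 1 bp were counted with pandas 2.3.3 in Python 3.11.15, after the code was tested on simulated peaks. Chromosomes 1 to 22 and X were analysed, and overlapping windows were joined into 6 loci. Named genes were all 8 members, genes that share a peak with them, the nearest protein-coding gene on each side, up to 3 members of each related list and the most alike gene by fold. MYLPF of the thick filament list was matched as MYL11. The members and lists were chosen with earlier results of these data known, there is no second condition, and no test was made. The alternatives were other end windows and flanks, summits in place of whole peaks, 1 end only, stricter or equal numbers of peaks, reciprocal overlap and leaving out each replicate.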

Additional observations from a re-analysis of the deposited data

How the results depend on the processing

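The count of 8 troponin genes with an end peak in all 3 replicates was also 8, the same genes, with equal numbers of peaks. A wider end window of 5000 bp or 1 replicate less can only keep a count of 8 of 8, so these settings show nothing about its stability. With an end window of 500 bp it was 6 in all 3 replicates, and with the summit inside the window 7. It was 2 in all 3 and 7 in at least 2 replicates at a −log10 q of 5 or more, and 0 and 2 among the 5000 peaks of highest −log10 p of each list. Over genes with a strand in the promoter table it was 2 of 3 for the start and 1 of 3 for the 3′ end, under both replicate rules.

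The percent of protein-coding genes with an end peak in all replicates was 6.02 at 500 bp, 22.5 at 5000 bp, 4.59 for the start, 4.24 for the 3′ end, 3.45 at −log10 q of 5 and 1.34 among 5000 peaks. The percent in at least 2 was 32.3, 8.23, 8.01, 7.55 and 3.28 under the last 5 of these. Without one replicate both percents ranged from 9.91 to 12.5. Genes with a peak in the body in all replicates numbered 3 at −log10 q of 5 and 1 among 5000 peaks, and leaving out a replicate cannot lower the main count of 8. The share of genes of like length with a body peak was not recomputed under these settings.

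Mean peaks per replicate in the loci, 75.7 in the main setting, were 32.3 at −log10 q of 5, 12.3 among 5000 peaks and 124.3 with flanks of 50 kb. Mean covered length, 61.8 kb, was 24.1 kb among 5000 peaks and 102.4 kb with flanks of 50 kb. Regions with peaks of all replicates, 27, numbered 5 at −log10 q of 5, 3 among 5000 peaks, 44 with flanks of 50 kb, and 31 to 37 without one replicate, where 2 peaks in place of 3 are required. With 50% reciprocal overlap the count was of replicate 1 peaks rather than merged regions, and was 4. Mean peaks shared with a neighbour gene, 5.67, were 3 at −log10 q of 5 and 1 among 5000 peaks. The causes were not tested, beyond the smaller number of peaks or wider flank that each setting has by construction.

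Of 69 recomputed mean folds of single genes, 66 moved by less than the SD between replicates. These 66 include every mean with a replicate left out. Such a mean cannot move by as much as the SD of 3 values, so it shows nothing about stability. At stricter cutoffs the mean was taken only over replicates that kept an end peak. It was replicate 2 alone for TNNT1 at −log10 q of 5 (4.21) and for TNNT2 among 5000 peaks (4.32). It was replicate 1 alone for TNNI1 among 5000 peaks (4.35). These values say little about stability. TNNT1, TNNC1 and TNNC2 kept no end peak among 5000 peaks and gave no value there. The mean folds that moved by more were TNNT3 with summits inside the end window (3.37), TNNC2 with end windows of 5000 bp (4.76) and TNNI3 among 5000 peaks (5.65, from replicate 3 alone). No paired analysis was possible because the inputs enter only through the peak calls and no groups were compared. With 3 replicates no value could be screened for an outlying sample, and peak lists limit every statement to places that passed the cutoff at this depth.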
